A study of Mus musculus with 16 samples.

Results

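The regions described here are 1653 stretches of mouse liver chromatin that carried H3K4me2 in both genotypes but in which H3K27ac was called in Arid1a WT liver and not in Arid1a KO liver. They were chosen by the presence or absence of overlapping regions in the authors' lists: on chromosomes 1 to 19, at least 1000 bp wide, overlapping by at least 1 bp a KO H3K4me2 region and a WT H3K27ac region, and overlapping no KO H3K27ac region. They are called WT-only acetylated regions below, and they make up 1653 of the 66832 regions of that list. The choice used the H3K27ac difference, so that difference is given as a description throughout and supports nothing.

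The study profiled the transcription factor E2f4 and both histone marks by chromatin immunoprecipitation and sequencing (ChIP-seq) in liver collected 40 h after partial hepatectomy, surgery after which the remaining hepatocytes divide to restore the organ. KO mice were Arid1a Fl/Fl; Alb-cre, with both alleles floxed and Cre recombinase driven by the albumin promoter, which is active in hepatocytes, so that other liver cells can still carry Arid1a. WT mice were Arid1a Fl/Fl, the same floxed alleles without Cre. Both were of postnatal day 90 on a mixed C57/B6 and 129 background. Each mark had 1 library per genotype, and E2f4 had 2 per genotype. No difference in a mark between the genotypes therefore has a replicate check or a test. Intervals of shares below are exact Clopper-Pearson 95% intervals. Those of medians are 95% order-statistic intervals, read from the ranked values. Both cover counting error over regions only.

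H3K4me2 is laid down at promoters and enhancers, whether active or only prepared for use, while H3K27ac is added by the acetyltransferases p300 and CBP at those that are active. Arid1a is a subunit of the SWI/SNF remodelling complex, which moves nucleosomes aside at enhancers and promoters and works beside these acetyltransferases. An element with H3K4me2 and no H3K27ac is often called primed. The libraries come from many cells, so that fewer cells with a mark and less of the mark per cell cannot be told apart.

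The WT-only acetylated regions at gene starts are the ones whose sequence was at hand, and 4 are shown that differ in how dense their CpG is. Each is the RefSeq promoter (assembly GRCm38.p6) from 250 bases before to 50 bases after the start, lies inside a WT-only acetylated region, and is printed 5′ to 3′ on the gene's strand with motif matches in capitals. Tns1 (tensin 1, an adaptor at cell adhesions) is at chr1:74124499-74124798, minus strand. Hspb1 (a small heat shock protein) is at chr5:135887669-135887968, plus strand. Slc13a3 (a sodium-coupled dicarboxylate transporter) is at chr2:165473148-165473447, minus strand. Ankrd23 (an ankyrin repeat protein) is at chr1:36536507-36536806, minus strand.
Tns1: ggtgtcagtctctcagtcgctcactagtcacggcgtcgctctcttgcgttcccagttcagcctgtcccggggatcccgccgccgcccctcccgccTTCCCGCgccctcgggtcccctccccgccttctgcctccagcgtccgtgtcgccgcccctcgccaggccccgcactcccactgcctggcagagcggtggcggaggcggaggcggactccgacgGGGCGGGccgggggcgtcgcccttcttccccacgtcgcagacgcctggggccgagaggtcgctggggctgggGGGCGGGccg
Hspb1: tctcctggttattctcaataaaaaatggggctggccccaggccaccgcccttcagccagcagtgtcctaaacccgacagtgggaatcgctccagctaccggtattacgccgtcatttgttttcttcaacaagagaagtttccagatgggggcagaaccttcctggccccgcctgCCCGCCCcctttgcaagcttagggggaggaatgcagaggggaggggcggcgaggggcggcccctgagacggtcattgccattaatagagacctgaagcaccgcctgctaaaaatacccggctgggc
Slc13a3: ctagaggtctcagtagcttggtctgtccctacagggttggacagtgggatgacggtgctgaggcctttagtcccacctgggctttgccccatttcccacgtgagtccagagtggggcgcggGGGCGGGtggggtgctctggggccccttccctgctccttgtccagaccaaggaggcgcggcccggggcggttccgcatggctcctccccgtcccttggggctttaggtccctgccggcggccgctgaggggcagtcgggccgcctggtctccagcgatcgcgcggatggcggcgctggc
Ankrd23: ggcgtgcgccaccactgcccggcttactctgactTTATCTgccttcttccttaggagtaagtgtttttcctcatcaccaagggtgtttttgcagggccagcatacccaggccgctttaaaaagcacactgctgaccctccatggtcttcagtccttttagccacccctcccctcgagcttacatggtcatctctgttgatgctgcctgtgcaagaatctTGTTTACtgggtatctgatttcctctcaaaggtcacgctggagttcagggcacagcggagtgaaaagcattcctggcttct
The capitals in Hspb1 and Slc13a3 mark the Sp/KLF motif, which is GGGCGGG read on either strand. Tns1 holds that motif at a pair of places and, before them, the E2F motif TTCCCGC. In Ankrd23 the first capitals mark the GATA motif, the complement of AGATAA. The second capitals of Ankrd23 mark the FOXA motif, which reads TGTTTAC here. The ratio of observed to expected CpG was 0.871 in Tns1, 0.615 in Slc13a3, 0.549 in Hspb1 and 0.356 in Ankrd23.

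WT-only acetylated regions were a small share of the regions that could have been chosen. Of 26658 WT H3K4me2 regions that met the width and chromosome limits, overlapped KO H3K4me2 and held WT H3K27ac, 1653 had no KO H3K27ac (6.20%, interval 5.91 to 6.50). The other 25005 held H3K27ac in both genotypes. Building the reverse set from the KO list, that is KO regions with both marks, WT H3K4me2 and no WT H3K27ac, gave 1110 of 26602 (4.17%). Absence of overlap was common over all H3K27ac regions, at 24.6% of KO regions without a WT region and 34.1% of WT regions without a KO region. The H3K27ac lists themselves held 54652 regions over 103.7 Mb in KO and 63321 over 112.6 Mb in WT, and the H3K4me2 lists 73042 over 111.6 Mb in KO and 66832 over 104.0 Mb in WT. The longer WT list of H3K27ac moves with the set, and its part in it was tested only by limiting both lists to 54652 regions, which left 1457. Stricter H3K27ac lists changed the number more, to 2669 (10.7%) where both were limited to a −log10 q-value of 2 or more and 2979 (18.004%) where it was 5 or more, and so did a minimum width of 500 bp (3660, 10.7%) or 2000 bp (278, 1.85%).

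The WT H3K27ac over these regions was weak and short. Its median fold over background, the authors' value for a region, was 3.52, against 5.36 in regions acetylated in both genotypes. It covered a median of 745 bp, or 52.6% of the region, against 1734 bp and 86.0%. At 864 regions it covered at least 50% of the width, and at 232 the whole width. With the 26658 regions ordered by this fold and split into 10 equal classes, the weakest 2665 held 709 of the WT-only set (26.6%), and the strongest 2666, with folds of 8.46 and more, held 0. The reverse set showed the same slope, with 506 of the weakest 2660 and 4 of the strongest 2661 (0.150%). Both sets thus sat mostly among weakly acetylated regions.

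**Figure D1:**
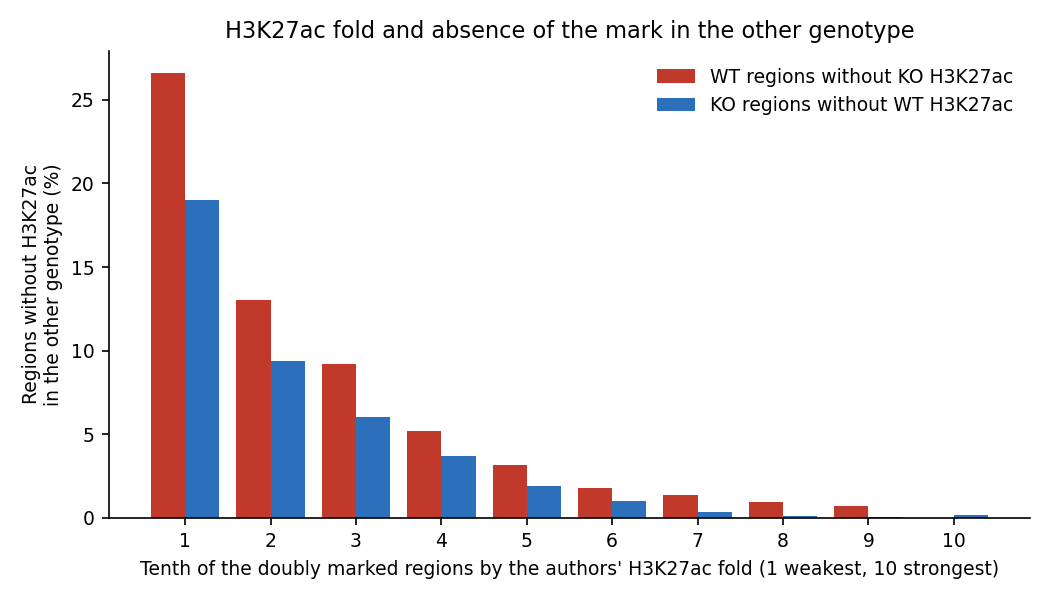
Share of H3K4me2 regions with H3K27ac that had no H3K27ac in the other genotype (vertical axis, %), in 10 equal classes of the authors' H3K27ac fold (horizontal axis, weakest to strongest). Red bars are WT regions without KO H3K27ac and go down from 26.6% in the weakest class to 0% in the strongest, where blue bars (KO regions without WT H3K27ac) reach 0.150%.

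Most of them did not lie next to KO H3K27ac. The nearest KO H3K27ac region was a median of 7922 bp away. It lay within 1000 bp for 158 regions, 1000 to 5000 bp away for 454, 5000 to 20000 bp for 567, 20000 to 50000 bp for 254 and farther for 220. In 103 cases (6.23%) the WT H3K27ac region over the site also met KO H3K27ac outside it, a partial rather than a complete absence. At the edges of the rule, 23 regions had KO H3K27ac 3 to 94 bp away, and 36 regions were left out for an overlap of 3 to 99 bp. The narrowest 152 regions were 1000 to 1049 bp wide, and 157 left out at 950 to 999 bp met every other criterion.

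Less of these regions was under KO H3K4me2 than of the other classes. KO H3K4me2 covered a median of 67.2% of the WT width (interval of the median 65.0 to 69.9), with the middle 50% of regions between 44.4 and 89.5%, against 94.1% in regions acetylated in both genotypes and 82.9% in the 2252 regions with H3K27ac in neither. It covered under 50% of the width in 509 of 1653 (30.8%), against 6.21% and 18.3% in those classes and 8.84% over all 29905 WT regions with KO H3K4me2. Coverage of at least 90% was seen in 24.6% of them, against 59.2% and 40.1%. The rule asked for 1 bp of KO H3K4me2, so that a complete absence of H3K4me2 could not occur here. Coverage inside the WT region also cannot pass 100%, in any class, so that the classes are compared with each other and not with 100%. Counting the whole width of the overlapping KO regions, also outside the WT region, removes that ceiling. KO H3K4me2 was then a median of 76.9% of the WT width in WT-only acetylated regions (interval 73.9 to 79.2), against 103% in regions acetylated in both genotypes and 91.1% in those with H3K27ac in neither. By this measure it was narrower in KO at 1199 of the 1653 (72.5%) and wider at 453, against 45.5% narrower and 54.5% wider where both genotypes were acetylated, and 60.7% narrower where neither was. In the reverse set, WT H3K4me2 covered a median of 74.1% of the KO width, and the whole WT regions there had a median of 81.1% of the KO width. No class with H3K27ac in both or in neither genotype was measured from the KO list. The values of the reverse set therefore have no class to stand against, and whether its H3K4me2 was narrower than in such classes was not tested. With a −log10 q-value of at least 5 in both H3K27ac lists the median KO coverage of the set was 85.2%, and that of the other classes was not recomputed.

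**Figure D2:**
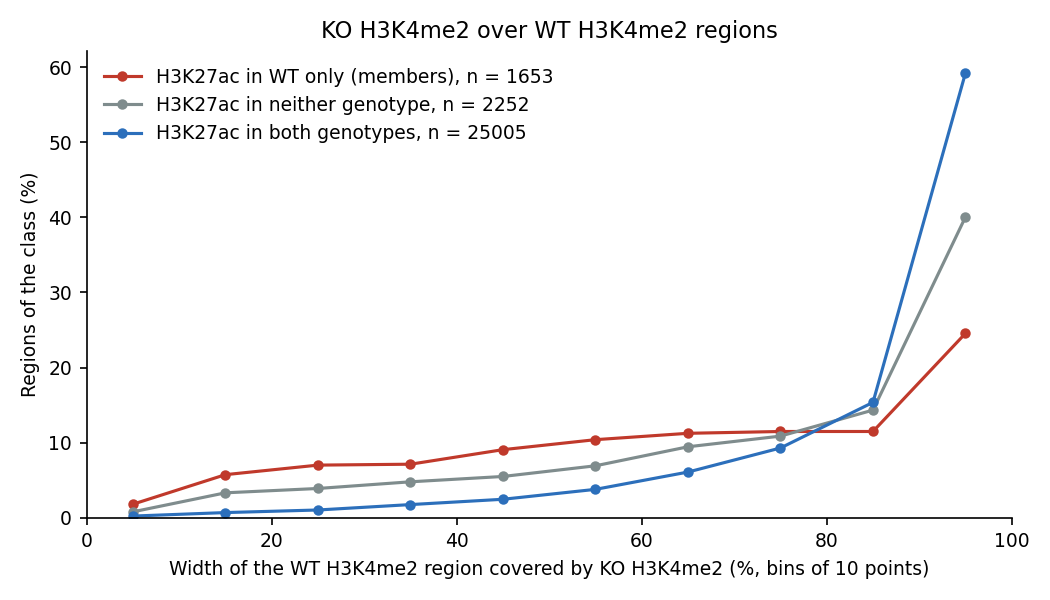
Share of regions of each class (vertical axis, %) by the part of the WT H3K4me2 width that KO H3K4me2 covered (horizontal axis, %, bins of 10 points). WT-only acetylated regions (red, n = 1653) have 24.6% of their number in the top bin, against 40.1% for regions with H3K27ac in neither genotype (grey, n = 2252) and 59.2% for those with it in both (blue, n = 25005).

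The lower KO coverage was also seen within broad classes of H3K4me2 width and fold. The top classes had no upper limit, and H3K27ac fold and distance to a start were not matched. WT-only acetylated regions were narrower, with a median of 1383 bp against 2297 bp for regions acetylated in both genotypes, and had a lower WT H3K4me2 fold, 3.76 against 5.30. Within 9 classes of width and fold, their median KO coverage was below that of regions acetylated in both genotypes in 9 of 9, by 7.12 to 35.2 percentage points, and below that of regions with H3K27ac in neither in 8 of 9. With the whole width of KO regions these counts were 9 of 9 and 7 of 9. The lowest median, 44.9% over 31 regions, was in those at least 2500 bp wide with a fold under 3.5. The 414 regions with the strongest WT H3K27ac had a median coverage of 61.4%, against 70.0% in the 413 weakest.

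The regions lay mostly away from gene starts. Of 1653, 217 (13.1%, interval 11.5 to 14.9) were within 1000 bp of a start, against 42.4% of regions acetylated in both genotypes, 37.2% of those with H3K27ac in neither, 24.6% of the reverse set and 39.9% of all 29905. Their median distance to a start was 19434 bp, against 5382 bp for regions acetylated in both genotypes. Another 452 (27.3%) were more than 50000 bp away, against 14.9%. Protein-coding genes held 1063 of them (64.3%) between their outer ends, and exons and introns were not told apart. Where strand was not given, both ends of a gene counted as a start. The share within 1000 bp was 8.20% with a minimum width of 500 bp and 25.2% with 2000 bp.

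**Figure D3:**
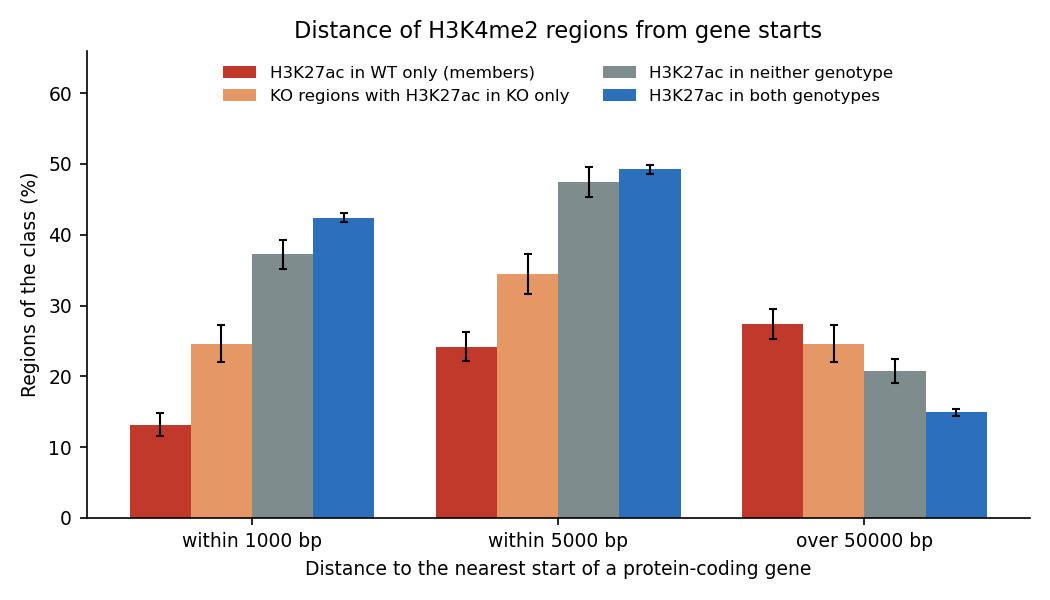
Share of regions (vertical axis, %) within 1000 bp, within 5000 bp and over 50000 bp of a protein-coding gene start. Bars are WT-only acetylated regions (red), the reverse set from the KO list (orange), regions with H3K27ac in neither genotype (grey) and in both (blue), with exact 95% intervals; within 1000 bp the red bar is lowest at 13.1% and the blue bar reaches 42.4%.

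Gene starts and distal sites differed in how much H3K4me2 remained. Of the 1579 regions off chromosome 18, for which RefSeq starts were at hand, 132 spanned a start, 881 lay inside a gene without a start and 566 lay between genes. KO H3K4me2 covered a median of 93.5% of the 132 at starts, 66.7% of the 881 and 63.8% of the 566. The same split gave 97.3% at starts and 90.8% elsewhere for regions acetylated in both genotypes, and 95.9% and 77.0% for those with H3K27ac in neither. At the 132 starts WT H3K27ac covered a median of 36.2% of the width with a fold of 3.39, while the H3K4me2 fold was 5.84, against 3.71 away from starts. At starts acetylated in both genotypes WT H3K27ac covered a median of 74.0% of the width with a fold of 6.50, against 86.0% of the width over all regions of that class. Higher KO coverage at starts was thus seen in each class, and its median at starts was lowest in the WT-only set. A smaller share of the width under WT H3K27ac at starts was likewise not particular to the set.

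The promoters at these starts were poorer in CpG than other marked promoters. The 132 regions spanned 147 starts of 132 genes, with a median GC content of 61.3% and a median CpG ratio of 0.646, against 0.781 at 10874 starts in regions acetylated in both genotypes, 0.746 at 605 starts in regions with H3K27ac in neither and 0.586 at all 20084. WT H3K27ac reached into the 300 bp promoter itself at 85 of the 147 (57.8%), against 95.0% in regions acetylated in both genotypes. The ETS motif CCGGAAG was in 12 of 147 (8.16%), against 19.3% of starts in regions acetylated in both genotypes, 4.79% in those with H3K27ac in neither and 11.9% of all promoters. The AP-1 motif TGANTCA was in 8.16%, against 4.55, 4.13 and 7.06% in the same order, and the HNF4 motif CAAAGTC in 6.80%, against 3.73, 3.31 and 4.14%. These shares rest on 12 and 10 starts. For the other motifs shown above the shares were 55.8% against 48.7, 53.2 and 34.5% for Sp/KLF, 10.9% against 12.4, 10.9 and 8.79% for E2F (TTCCCGC or TTGGCGC), 2.72% against 2.64, 1.98 and 3.04% for FOXA, and 6.80% against 5.87, 5.95 and 9.57% for GATA. The PU.1 motif GAGGAAG was in 6.12%, against 12.9, 12.9 and 13.2% in the same order, and the C/EBP motif TTGCNNAA in 5.44%, against 8.27, 6.45 and 10.3%. The remaining motifs searched were NF-Y (CCAAT), in 32.7% against 37.9, 34.7 and 38.1%, and RUNX (TGTGGTT), in 4.08% against 3.19, 3.14 and 4.77%. Both strands were read, starts of a gene can share bases, and a match is only a run of letters.

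At 3 of the 4 promoters printed, H3K4me2 was nearly as wide in KO as in WT. The Tns1 region (1184 bp) was covered over 100% by KO H3K4me2, its WT H3K4me2 fold was 9.53, the WT H3K27ac over it had a fold of 3.11, and the nearest KO H3K27ac was 41185 bp away. KO H3K4me2 covered 91.5% of the Hspb1 region (1688 bp) and 95.1% of the Ankrd23 region (1404 bp). Slc13a3 differed, as described below with the other regions of that gene. The remaining promoter regions with the largest part under WT H3K27ac, at Bcam (a laminin-binding adhesion molecule), Mrvi1 (a mediator of cGMP signalling in smooth muscle) and Mtnr1a (a melatonin receptor), had 97.2, 100 and 97.9% under KO H3K4me2.

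Scara5, the gene of a ferritin receptor, held the region with the strongest WT H3K27ac. The region, chr14:65666407-65669463, lies at an end of the gene. KO H3K4me2 covered 172 of its 3057 bp (5.63%), and WT H3K27ac covered all of it with a fold of 8.28. Across the gene and 5000 bp on each side, no H3K27ac region was called in KO liver, while WT liver had 23 regions covering 53917 bp, the widest 13558 bp and the strongest with a fold of 12.1. This was the largest drop in H3K27ac length of all 20661 protein-coding genes. H3K4me2 covered 528 bp there in KO liver and 5655 bp in WT liver, so that most of the WT H3K27ac over Scara5 lay outside H3K4me2 regions and only 1 site met the rule.

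Enpp2, the gene of autotaxin, a secreted enzyme that makes the lipid mediator lysophosphatidic acid, held the most regions, 5. KO H3K4me2 covered from 37.6 to 84.6% of each, and their WT H3K27ac folds were between 4.31 and 6.64. Over the gene and its flanks H3K27ac covered 3257 bp in 2 regions in KO liver and 25487 bp in 9 regions in WT liver. H3K4me2 covered 9256 bp in KO liver and 17915 bp in WT liver. The 5 regions followed each other with no other region with both marks between them, over 78675 bp, and the H3K27ac that was called in KO lay at the end of the gene with the higher coordinate.

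Slc13a3 and Slc22a4 (a carrier of ergothioneine and organic cations) had 4 regions each within 5000 bp. For Slc22a4 these include chr11:53978739-53980808, which lay outside the gene and inside its neighbour Slc22a21. At Slc13a3 KO H3K4me2 covered 41.7 to 83.4% of them, and the one that spans the promoter printed above, chr2:165470627-165473549, was covered over 50.6% of its 2923 bp. H3K27ac over Slc13a3 was 5182 bp in KO liver and 10164 bp in WT liver, and H3K4me2 was 9338 bp in KO liver and 16955 bp in WT liver. At Slc22a4 the WT H3K27ac was short, 109 to 477 bp per region, and H3K4me2 covered 7619 bp in KO liver and 9038 bp in WT liver. Scara5 and Enpp2 thus had long WT H3K27ac over these sites, and Slc22a4 had little in either genotype, 957 bp in KO liver and 2867 bp in WT liver.

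**Figure D4:**
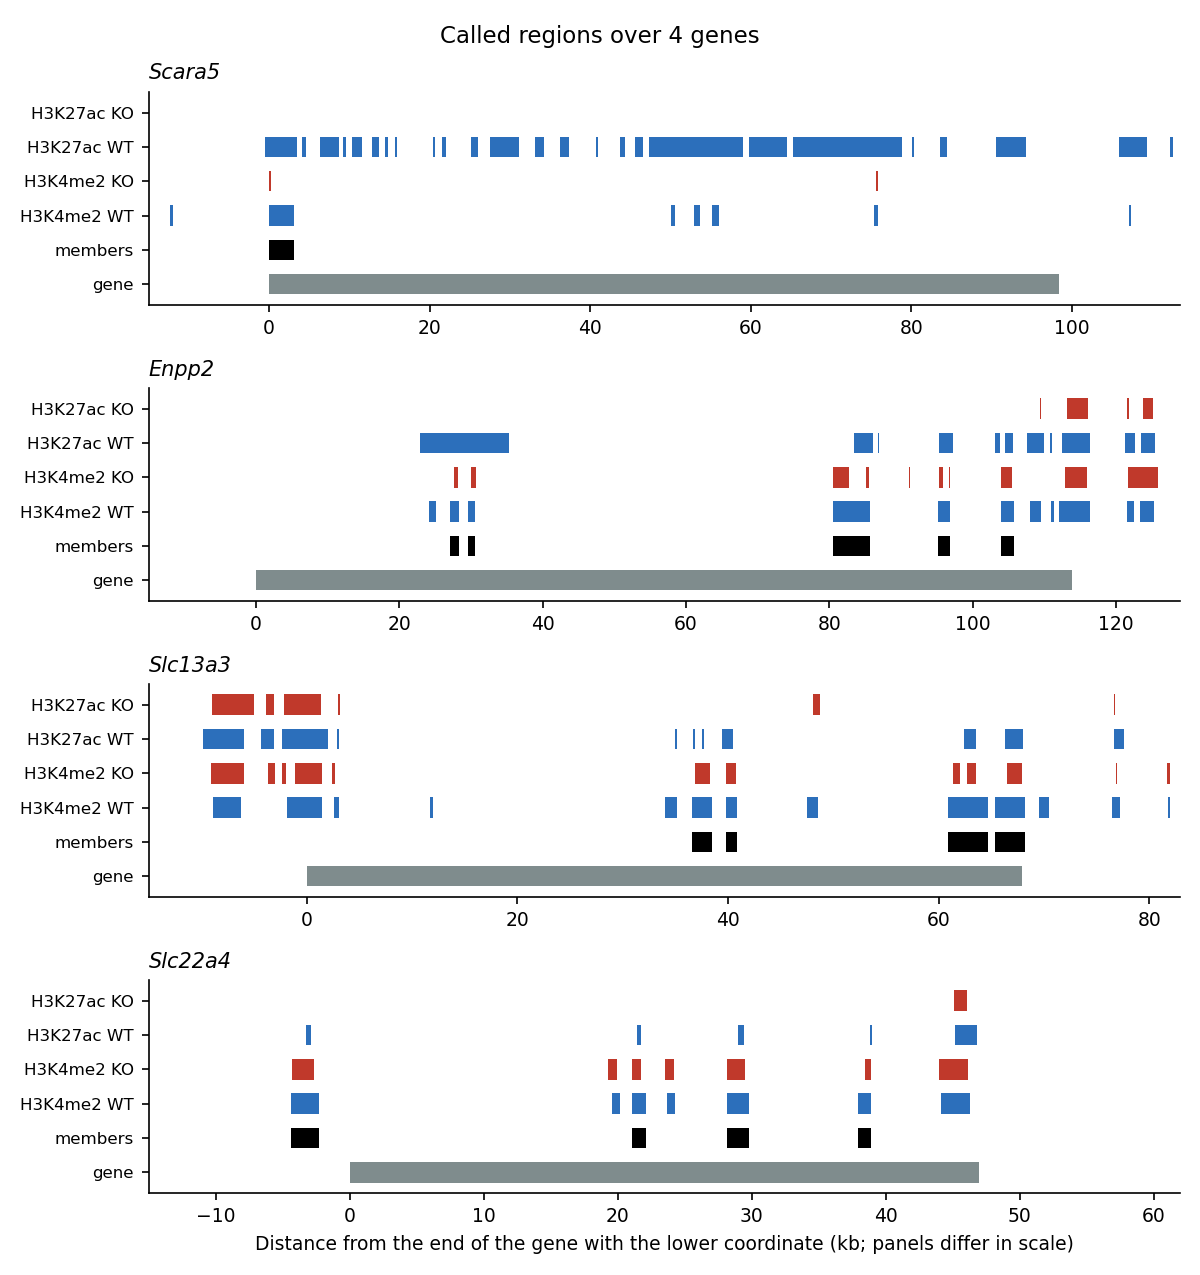
Called regions over Scara5, Enpp2, Slc13a3 and Slc22a4, against the distance from the end of the gene with the lower coordinate (horizontal axis, kb). Rows are H3K27ac in KO and WT, H3K4me2 in KO and WT (KO red, WT blue), the WT-only acetylated regions (black) and the gene (grey); the KO H3K27ac row is empty over Scara5, where WT H3K27ac covers 53917 bp.

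Other genes with 4 regions included Dab2ip (a scaffold that restrains Ras signalling) and Bach2 (a transcriptional repressor best known from lymphocytes). They differed from Enpp2 in H3K27ac length, which in KO was 68.9% of that in WT at Dab2ip and 80.4% at Bach2, against 12.8% at Enpp2. How much of it lay at the same bases in both genotypes was not measured. H3K27ac covered 15342 bp in KO liver and 22266 bp in WT liver at Dab2ip, and 38532 bp in KO liver and 47920 bp in WT liver at Bach2. Dab2ip also held 5 regions acetylated in both genotypes, and Bach2 held 11.

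Among the strongest WT H3K27ac signals after Scara5 were Abcc9 (a regulatory subunit of potassium channels), Slc2a6 (a sugar transporter), Atrnl1 (an attractin-like membrane protein), Gclc (the catalytic subunit of the enzyme that starts glutathione synthesis) and Mtor (the growth-controlling kinase). At Abcc9 (chr6:142667425-142668791) the fold was 8.26 and KO H3K4me2 covered 64 of 1367 bp (4.68%). At Gclc the region, 56166 bp outside the gene, was covered over 18.3%, and at Atrnl1 over 54.4%. Mtor held 2 regions under 1 WT H3K27ac region of 12302 bp, with 48.0 and 39.1% under KO H3K4me2. H3K27ac over Mtor covered 7531 bp in KO liver and 21538 bp in WT liver. The others by this measure were nearest to Lipg (endothelial lipase, 95.6% under KO H3K4me2) and Fam120a (89.3%), so that strong WT H3K27ac stood over sites with little H3K4me2 in KO and over sites with nearly all of it.

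The longest WT H3K27ac over a single region was at Sema5b, the gene of a membrane semaphorin, with 3859 bp. KO H3K4me2 covered 18.2% of that region, and no H3K27ac region was called over Sema5b in KO liver, against 4846 bp in WT liver. Cdh1, the gene of E-cadherin of epithelial junctions, followed with 3801 bp, and 27.1% of its region was under KO H3K4me2. H3K27ac over Cdh1 covered 2408 bp in 3 regions in KO liver and 17984 bp in 10 regions in WT liver. Next were Sec22a (a vesicle transport protein, 96.3% under KO H3K4me2), Pdia5 (a disulfide isomerase, 12.3%), Csad (an enzyme of taurine synthesis, 100%) and Bicc1 (an RNA-binding protein, 22.2%). Sec22a, Pdia5 and Sema5b are neighbours on chromosome 16, with their regions starting at 35308316, 35470599 and 35631950.

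Among the 864 regions with at least 50% of their width under WT H3K27ac, those farthest from any KO H3K27ac were nearest to Pcdh20 (a protocadherin), with a gap of 1044912 bp, and the olfactory receptor genes Olfr1036 and Olfr1033, with gaps of 930843 and 881331 bp. Wider gaps occurred among the regions with less WT H3K27ac. KO H3K4me2 covered 24.3, 58.3 and 89.1% of these. The next were between 439109 and 708346 bp from KO H3K27ac and far from any protein-coding gene as well. Their nearest genes, Gm9195, Gm36323 and Lcorl (a transcriptional regulator), were 585551, 144447 and 978771 bp away.

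Near genes, 1146 of 20661 protein-coding genes (5.55%) had at least 1 WT-only acetylated region within 5000 bp of their body, and 837 (4.05%) had one of the reverse set. Most had a single one: 1005 genes had 1, 122 had 2, 13 had 3, 5 had 4 and Enpp2 had 5. H3K27ac length in KO was a median of 68.7% of that in WT over the 1004 genes with 1 region and some WT H3K27ac in that window, and 53.5% over the 122 with 2, against 101% over 12111 genes with a region acetylated in both genotypes and none of the set. It was 54.2% over the 19 genes with 3 or more. H3K4me2 length in the same windows was 102% of WT over the genes with 1 region and 106% over those with 2, against 106% over the 12111, and it was 89.1% over the 19 genes with 3 or more. The H3K27ac values follow from the rule and are given as a description.

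No H3K27ac at all was called in KO within the window of 139 of the 1004 genes with 1 region, 4 of the 122 with 2 and 0 of the 19 with 3 or more. It was 13 of the 12111 genes with a region acetylated in both genotypes and none of the set. Those 12111 were chosen for a region that overlaps KO H3K27ac, so that their low count follows from the choice and is no background. Over all 20661 genes, H3K27ac was called in this window at 14229 in KO and 14352 in WT. How many genes with WT H3K27ac had none in KO was not counted, so the 139 have no background share. Scara5 had the longest WT H3K27ac of the genes near the set with none in KO. Next were Susd4 (a complement regulator, 11916 bp), Slc15a5 (a member of a peptide transporter family, 7939 bp), Anks1b (5830 bp) and Sema5b. These genes, and Osm and Slc13a2 below, were chosen after their values were seen. Osm, the gene of the cytokine oncostatin M, had 2610 bp of H3K27ac in WT and 0 in KO, while H3K4me2 covered 3686 bp in KO liver and 2178 bp in WT liver. Slc13a2, another dicarboxylate transporter, had 2318 bp of H3K27ac in WT and 0 in KO, with H3K4me2 over 1178 bp in KO liver and 5820 bp in WT liver.

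Of the regions with both marks near hepatocyte genes, a share below the background was WT-only in each of the 5 lists. The share of genes with at least 1 such region ran both ways. Low region shares were not particular to hepatocyte genes. They were also seen for the regeneration, cell cycle, endothelial, B cell, neutrophil, stellate cell and interferon lists. The immediate early list was near the background (2 of 31, 6.45%). Higher shares were seen for the SWI/SNF, macrophage, cholangiocyte, T and NK cell and fetal lists, the last with 1 region each (1 of 12 and 1 of 11). Among the low lists, B cells had 0 of 5 and neutrophils 0 of 4. Counts as small as these do not place a list above or below the background. That background also counts regions far from genes, where WT-only regions were more frequent (27.3% over 50000 bp from a start, against 14.9%). Of 68 regions with both marks near the genes of hepatocyte identity factors, 2 were WT-only (2.94%, against the 6.20% of all), near Onecut2 and Esrra. Near the genes of secreted proteins it was 0 of 33, near lipid, cholesterol and bile acid genes 1 of 62 (Srebf2, the regulator of cholesterol synthesis), near drug metabolism genes 1 of 50 (Ces3a, a carboxylesterase), and near glucose and amino acid genes 2 of 57 (Gys2, the liver glycogen synthase, and Ppargc1a, a coactivator of gluconeogenic genes). The regions near Esrra and Srebf2 lay outside these genes, inside their neighbours Kcnk4 and Shisa8. H3K27ac at Ces3a covered 7823 bp in KO liver and 14498 bp in WT liver, and at Gys2 4536 bp in KO liver and 10588 bp in WT liver. Counted by gene, this was 2 of 20 identity factors (10%), 0 of 23 secreted proteins, 1 of 24 in each of the lipid and drug lists (4.17%) and 2 of 23 glucose and amino acid genes (8.70%), against 5.55% of all genes. All genes are an unlike background here. A region acetylated in both genotypes lay near 13053 of the 20661, but near all 20 identity factors and 23 of the 24 drug metabolism genes. H3K27ac was longer in KO at 17 of the 23 secreted protein genes and shorter at 3, and longer at 12 and shorter at 8 of the 20 identity factors. None of the regions lay near Alb, Hnf4a or Cebpa. H3K27ac over Alb covered 22766 bp in KO liver and 22725 bp in WT liver, and over Hnf4a 47231 bp in KO liver and 41942 bp in WT liver.

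Near regeneration and cell cycle genes the share also differed by what was counted. Of 72 regions near regeneration signalling genes 3 were WT-only (4.17%), near Egfr (the receptor of EGF and transforming growth factor alpha), Stat3 (the signal transducer of interleukin 6) and Fgfr4 (the receptor of the bile acid signal FGF15). At Egfr the site was 26.9% under KO H3K4me2 and 156 bp from KO H3K27ac, and H3K27ac over the gene covered 63278 bp in KO liver and 79477 bp in WT liver. Over Stat3 it covered 20728 bp in KO liver and 28830 bp in WT liver. Fgfr4 went the other way, with 3784 bp in KO liver and 3068 bp in WT liver, and the WT H3K27ac over its site was 171 bp. H3K27ac was shorter in KO at 18 of the 22 regeneration genes and longer at 4, with medians of 10416.5 bp in KO liver and 11975.5 bp in WT liver, against 7676 shorter and 7089 longer of all 20661 genes. Immediate early genes had 2 of 31 (6.45%), near Nr4a1 and Btg2, and cell cycle and replication genes 2 of 52 (3.85%). By gene, 3 of 22 regeneration genes (13.6%), 2 of 18 immediate early genes (11.1%) and 2 of 36 cell cycle genes (5.56%) had at least 1, against the 5.55% of all genes. That background is unlike these lists. A region acetylated in both genotypes lay near 21 of 22, 18 of 18 and 36 of 36 of their genes, against 13053 of all 20661. H3K27ac over the cell cycle genes went the other way from that over the regeneration genes, longer in KO at 24 of 36 and shorter at 12, with medians of 3412 bp in KO liver and 2195 bp in WT liver. The cell cycle regions were at Cdk1, the mitotic kinase, where H3K27ac covered 4918 bp in KO liver and 7239 bp in WT liver, and at Mcm2, a subunit of the replicative helicase, with 4352 bp in KO liver and 4623 bp in WT liver. Ccnd1 and Myc had none within 5000 bp.

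The genes of SWI/SNF subunits, the complex of Arid1a itself, held 7 of 68 (10.3%, against 6.20% of all), over 6 of 22 genes (27.3%, against 5.55%). They were the ATPase genes Smarca4 and Smarca2 (with 2), Arid1b (the paralogue of Arid1a), Arid2, Dpf1 and Dpf3. The WT H3K27ac over the sites at Dpf1, Arid2, Dpf3 and Arid1b had −log10 q-values under 2, from 1.279 (Dpf1) to 1.969 (Arid1b). It covered only 188 bp at Dpf1 and 258 bp at Arid2, where KO H3K27ac lay 163 bp away. The −log10 q-value was 11.8 at Smarca4, and 2.31 and 4.34 at the Smarca2 sites. The list was not recounted with a −log10 q-value of at least 2. H3K27ac covered 12832 bp in KO liver and 22224 bp in WT liver at Smarca4, and 26314 bp in KO liver and 41844 bp in WT liver at Smarca2. At Arid1b it covered 59355 bp in KO liver and 69371 bp in WT liver, with 71383 bp of H3K4me2 in KO liver and 57019 bp in WT liver. The reverse set was also near 6 of the 22 genes (27.3%), against 4.05% of all genes. For both shares by gene, all genes are an unlike background. A region acetylated in both genotypes lay near 21 of the 22, against 13053 of all 20661. No list was tested. Arid1a held none, and its H3K27ac covered 32432 bp in KO liver and 24000 bp in WT liver, which does not check the deletion, since the lists hold no read coverage over exons.

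**Figure D5:**
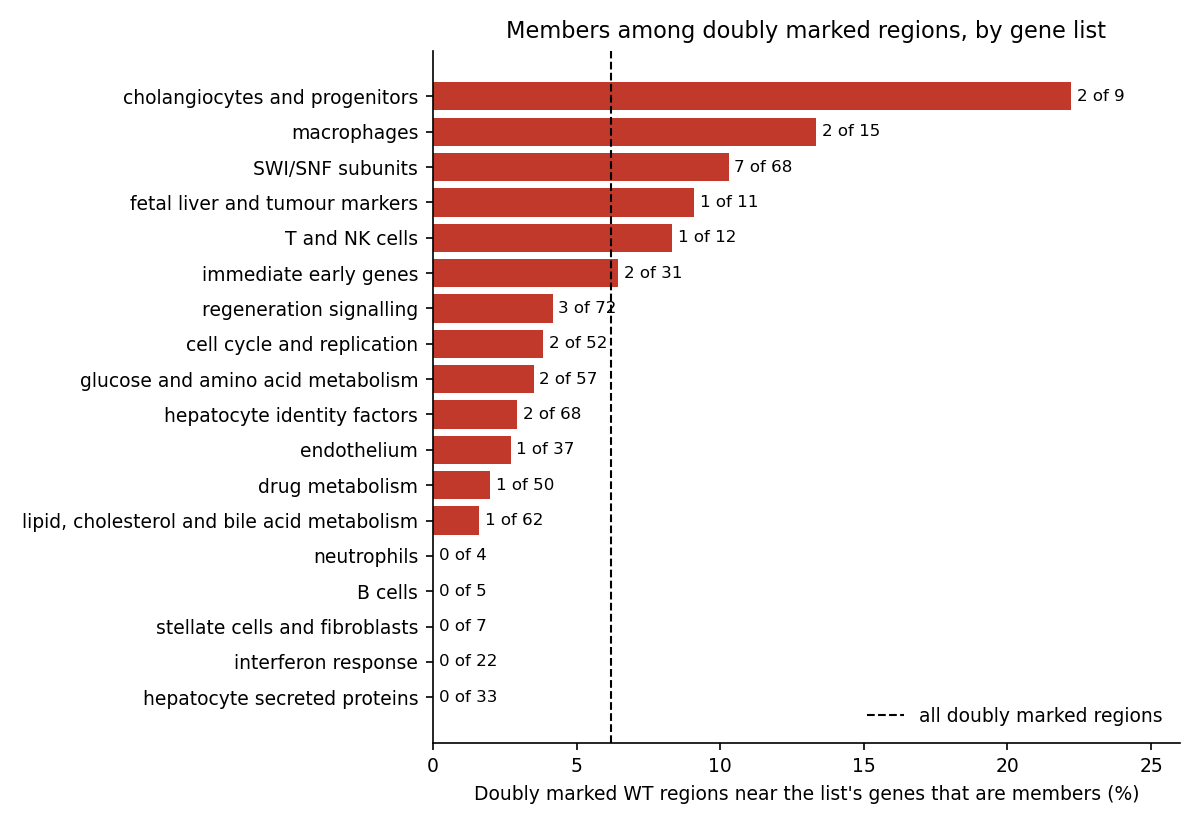
Share of WT regions with both marks near the genes of each list that were WT-only acetylated (horizontal axis, %), with the counts beside each bar. The dashed line is the 6.20% of all such regions; hepatocyte secreted proteins stand at 0 of 33 and SWI/SNF subunits at 7 of 68, and the highest bars rest on 9 to 15 regions.

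Lists of other cell types had few regions with both marks. Cholangiocyte and progenitor genes had 2 of 9, at Sox9, the transcription factor of bile duct cells, and Cd24a, a surface glycoprotein of progenitors. At Sox9 (chr11:112780515-112783852) KO H3K4me2 covered 73.5% of 3338 bp, and H3K27ac covered 0 bp in KO liver and 1864 bp in WT liver over the gene. At Cd24a the WT H3K27ac was 391 bp and the H3K4me2 was fully covered in KO. Macrophage genes had 2 of 15, at Cx3cr1 (a chemokine receptor) and Clec4f (a Kupffer cell lectin), T and NK cell genes 1 of 12 (Cd247), endothelial genes 1 of 37 (Flt1, a VEGF receptor) and fetal liver genes 1 of 11 (Igf2bp3, an RNA-binding protein of fetal tissue). B cell genes had 0 of 5, neutrophil genes 0 of 4, stellate cell and fibroblast genes 0 of 7 and interferon response genes 0 of 22. At Flt1 H3K27ac covered 9413 bp in KO liver and 19586 bp in WT liver. It was also shorter in KO at Cx3cr1 (1982 bp in KO liver, 3792 bp in WT liver) and Igf2bp3 (4417 bp in KO liver, 7787 bp in WT liver). Clec4f and Cd247 went the other way, with 10952 and 845 bp in KO liver and 10672 and 335 bp in WT liver. The WT H3K27ac over the sites at Clec4f and Cd247 was only 157 and 335 bp.

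The labelled hepatocytes were checked by markers. H3K27ac was called at all 8 hepatocyte markers in both genotypes, over 177234 bp in KO liver and 163901 bp in WT liver, and H3K4me2 there covered 135691 bp in KO liver and 129155 bp in WT liver. Endothelial markers were also covered, 8 of 8 in both, over 136229 bp in KO liver and 192670 bp in WT liver, and H3K4me2 there covered 113569 bp in KO liver and 79177 bp in WT liver. B cell markers had H3K27ac at 5 of 8 in KO (12438 bp) and 4 of 8 in WT (15534 bp), with Pax5 and Cd22 among those at 0 in both. T and NK cell markers had it at 7 of 10 in KO (27765 bp) and 8 of 10 in WT (24929 bp), with Cd3e and Cd8a at 0 in both. Macrophage markers had it at 7 of 7 in KO (31411 bp) and 6 of 7 in WT (33479 bp), with Marco at 0 in WT. Neutrophil markers had it at 3 of 6 in KO (6037 bp) and 4 of 6 in WT (8470 bp), with S100a9 and Ly6g at 0 in both, and stellate cell markers at 7 of 7 in KO (20862 bp) and 6 of 7 in WT (29645 bp). Cholangiocyte markers had it at 1 of 6 in KO (6509 bp) and 2 of 6 in WT (4575 bp), with Krt19, Krt7, Epcam and Spp1 at 0 in both. H3K4me2 over the markers of T and NK cells covered 21892 bp in KO liver and 49686 bp in WT liver, and over those of B cells 24518 bp in KO liver and 37192 bp in WT liver. It was also shorter in KO at neutrophil markers, with 7548 bp in KO liver and 10831 bp in WT liver, and near equal at cholangiocyte markers, with 15696 bp in KO liver and 15836 bp in WT liver. Over stellate cell markers it was longer in KO, with 25537 bp in KO liver and 13327 bp in WT liver, as over macrophage markers, with 24364 bp in KO liver and 21018 bp in WT liver. Signals of other cells than hepatocytes were thus present and differed between the genotypes, and their part in the WT-only acetylated regions was not tested.

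E2f4, which the rule did not use, was almost never called in these regions. The E2f4 lists held 287 and 683 peaks in KO replicates 1 and 2 and 1791 and 1058 in WT replicates 1 and 2. KO replicates 1 and 2 had a summit in 0 and 0 of these regions, and WT replicates 1 and 2 in 1 and 1, with KO 0 ± 0 and WT 1 ± 0 (SD, n = 2 each), an exact two-sided permutation p of 0.333, the smallest that 2 against 2 libraries can give. Regions acetylated in both genotypes held 207 and 600 in the KO replicates and 1297 and 895 in the WT replicates, and 2.47% of all 29905 regions had a summit of both WT replicates, against 0% of the set. The WT summits were at Slc30a3 (a vesicular zinc transporter, E2f4 fold 5.17 in replicate 1) and Nectin1 (a cell adhesion molecule, fold 14.0 in replicate 2), and neither was shared by both replicates. E2f4 was scarce at the gene starts of the set too, where 1 of 132 regions (0.758%) had a summit in any library, against 13.8% of starts acetylated in both genotypes, 1.45% of those with H3K27ac in neither and 11.9% of the reverse set at starts. Nothing in the labels says that replicates came from separate animals, so that their spread may be technical.

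The regions were spread over all 19 chromosomes and mostly stood alone. The share of regions with both marks that were WT-only was lowest on chromosome 7 (83 of 1661) and highest on chromosome 18 (74 of 819, 9.04%). With regions of both marks put in order along each chromosome, 1281 had none of the set beside them, 142 pairs and 21 runs of 3 followed each other, and 5 runs of 4 and the 1 of 5 at Enpp2 were the longest. One run of 4 lay 130483 to 221679 bp from Myc (chr15:62120845-62213046), with 13.3 to 46.1% of each region under KO H3K4me2. A run of 3 spanned Sox9, with regions 48873 and 221008 bp to either side of the one at the gene, and another lay 11180 to 190335 bp from Tgfbr2, the receptor of transforming growth factor beta. These distances do not show which gene a region acts on.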

How the data were processed

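ChIP-seq of E2f4 (2 libraries per genotype), H3K4me2 and H3K27ac (1 each) was taken from the authors' list of called peaks of each library. The series has 16 samples, and the 8 inputs among them are not analysed here. The submitters' processing notes name build mm10 and the tools Bowtie2 2.2.3, MACS2 2.0.10.20131216, Picard and HOMER, without roles. Per the labels' protocols, hepatocytes were isolated from frozen liver after fixation (1% formaldehyde, 20 min). The deposited lists give a fold over background, a ratio used only to describe or rank regions within a list, and the −log10 of a p-value and of a q-value, of which the −log10 q-value served in filters. The score deposited by the authors had no use here, and E2f4 summits were placed with the offset that the deposited lists give. Counts are not part of the lists and depth is therefore unknown. A mark described here as not called may still have been present below the authors' threshold.

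Overlaps, covered lengths and exact intervals were computed with Python 3.11.15, numpy 2.4.6, pandas 2.3.3 and scipy 1.17.1, after tests on simulated data in which 0 of 2000 planted regions were misassigned. Gene ends for 20661 protein-coding genes came from RefSeq (GRCm38.p6, the coordinates of mm10). Starts came from its promoter table for 16456 genes, and for the other 4205 both ends were used. A gene window is the body with 5000 bp on each side. The regions and the 18 gene lists (328 of 337 entries were in the table) were chosen with earlier results of these data known, and no list was tested. Named genes followed a rule: up to 8 regions by WT H3K27ac fold, 6 by WT H3K27ac length, 6 by distance from KO H3K27ac among those with at least 50% of their width under WT H3K27ac, 6 genes by number of regions, 3 genes per list, 6 regions with an E2f4 summit, 6 at promoters, and Arid1a, Alb, Hnf4a, Cebpa and Ccnd1. The whole width of KO H3K4me2 regions, runs of neighbouring regions, the genes without KO H3K27ac, Myc and the promoter of Slc13a3 were chosen after their values were seen. Sequences are printed for promoters only. A few items that the rule names are not reported here.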

Additional observations from a re-analysis of the deposited data

How the results depend on the processing

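The share of regions without KO H3K27ac depended on the H3K27ac threshold and on the width. With a −log10 q-value of at least 2 in both H3K27ac lists there were 2669 regions (10.7% of those with both marks), KO H3K4me2 covered a median of 71.8%, and 11.3% lay within 1000 bp of a gene start. With at least 5 these values were 2979, 18.004%, 85.2% and 15.8%. The coverage of the other classes was not recomputed under these settings, so that the gap to them is not known there. With a width of at least 500 bp they were 3660, 10.7%, 74.3% and 8.20%, and with 2000 bp 278, 1.85%, 63.9% and 25.2%. The share was 5.58% with H3K27ac lists of equal length, 6.65% with an overlap of at least 50% of the shorter region and 5.61% without regions that had KO H3K27ac within 1000 bp. The whole width of overlapping KO H3K4me2 regions, chosen after seeing the data, gave 76.9% of the WT width in place of 67.2%. The 864 regions with WT H3K27ac over at least 50% had a median KO H3K4me2 of 64.6%. A window of 5000 bp put 24.1% near a start. The cause of these changes was not tested. The E2f4 difference, KO minus WT, was -0.5 to -6 regions over the alternatives, and between -1 and -1 with each library left out. The value of -6 came with a −log10 q-value of at least 5 in both H3K27ac lists, at means of 2 in KO and 8 in WT. At the main setting KO had 0 summits, and the KO lists were shorter. The sign could therefore hardly change and says nothing of stability. With the replicate number as a block the difference was -1 (exact sign-flip p = 0.5), and same-numbered libraries did not deviate together (correlation 0.000776 over 31163 regions). List genes near a region numbered 26 of 327 (7.95%, against 5.55% of all genes), 21 with no flank (6.42%, against 4.71%) and 36 with 20000 bp (11.01%, against 8.06%). All genes are an unlike background here. A region acetylated in both genotypes lay near 13053 of 20661, but near nearly all genes of most lists.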

Other observations

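By position, the 1 Mb window with the most WT-only acetylated regions was chr12:25000001-26000000, with 7 of 21 regions with both marks. It holds a run of 3 regions between 172747 and 213581 bp from Id2, an inhibitor of basic helix-loop-helix factors, and another run of 3 between 478392 and 511158 bp from Rnf144a. The window on chromosome 4 from 32000001 to 33000000, around Bach2, had 6 of 21, and the window on chromosome 15 from 54000001 to 55000000, with Enpp2, had 5 of 9.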
